A study of Mus musculus with 7 samples.

Results

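The genes of DNA replication and the cell cycle were followed here in cultured mouse cortical neurons that carried a control hairpin and in neurons that carried none. They are 44 genes listed by name, 29 of which act up to and through DNA synthesis (called G1/S here), 12 in the later steps up to cell division (G2/M) and 3 in neither list (*Cdkn1b*, *Cdkn1c* and *Rb1*). A gene was read through array probe sets that name it alone and do not end in _x_at, and a probe set was tested if it reached a level of 50 on at least 1 array. By this rule 41 of the 44 genes were tested, out of 12315 genes on the array with a tested probe set, and they hold 65 tested probe sets out of 22748. The other listed genes were *Ccnb1*, for which the annotation used here has no probe set of that gene alone, *Tyms*, whose 4 probe sets stayed under 50, and *Cdc6*, which was just outside the limit with a highest value of 47.8. Just inside the limit were *Aurkb*, with a highest value of 52.05, and *Pole*, with 62.2.

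All samples were primary neurons from the cortex of C57/Bl6J embryos of day 16, with RNA taken at 16 days in vitro and 1 array for each. The 4 luciferase samples had received a lentivirus (pLL3.7_H1) that drives a short hairpin RNA against firefly luciferase, a gene that mice lack, for 2 weeks. The 3 blank samples were not transduced, although their labels also mention a hairpin treatment in general terms. No allele or agent separated the groups other than what came with the virus. By the methods the virus also expressed green fluorescent protein and was harvested in medium of the cells that made it. The virus, its hairpin, this protein and that medium cannot be told apart. The methods describe quadruplicate cultures spread at random over plates and 1 untransduced sample that failed quality control, but the labels do not say which arrays come from separate cultures, so the p-values measure the spread between these arrays, which may in part be technical. Arrays of hairpins against mouse genes were not analysed here. The sources used here do not say whether an antimitotic drug was added to the cultures.

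Cells enter the cycle when D-type and E-type cyclins with their kinases inactivate the retinoblastoma protein, which frees E2F factors to transcribe the genes of DNA synthesis. The MCM helicase is then loaded on DNA with the help of CDC6 and CDT1, and polymerases, the PCNA clamp and ligase copy the strands. The G2/M genes come later and are held down in resting cells by the DREAM complex, which acts through short promoter elements called CHR. Cortical neurons have left the cycle, while the glia and progenitors that such cultures also hold can divide.

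Promoters of the earlier and the later genes are known for different short elements. The stretches below are shown because they carry the letters of an E2F site (TTTCGCGC or TTTGGCGC), which G1/S genes are known to respond to. They come from RefSeq promoter windows of GRCm38.p6, each 300 bases long with 250 before and 50 after the annotated start, which were found for 34 of the 44 genes. The strand shown is that of the gene, from 5′ to 3′, and capitals mark the E2F letters, which in *Pola1* and *Lig1* lie on the opposite strand.
Mcm3: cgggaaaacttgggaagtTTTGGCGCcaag
Mcm5: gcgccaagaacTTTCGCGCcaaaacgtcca
Mcm6: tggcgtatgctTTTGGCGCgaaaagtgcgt
Mcm7: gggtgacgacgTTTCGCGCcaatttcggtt
Cdt1: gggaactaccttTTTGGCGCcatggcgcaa
Rfc3: acgtcgcacgcTTTCGCGCtcgcgggaaaa
Pola1: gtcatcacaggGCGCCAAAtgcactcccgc
Lig1: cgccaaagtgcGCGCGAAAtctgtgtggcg
The *Mcm3* stretch is chr1:20820263-20820292 (minus strand), with the capitals beginning at base 39 of the transcript. The *Mcm5* stretch is chr8:75109345-75109374 (plus strand), with the capitals beginning 153 bases before the start. The *Mcm6* stretch is chr1:128359797-128359826 (minus strand), with the capitals beginning 110 bases before the start. The *Mcm7* stretch is chr5:138171849-138171878 (minus strand), with the capitals beginning at base 17 of the transcript. The *Cdt1* stretch is chr8:122568035-122568064 (plus strand), with the capitals beginning at base 33 of the transcript. The *Rfc3* stretch is chr5:151651200-151651229 (minus strand), with the capitals beginning 10 bases before the start. The *Pola1* stretch is chrX:93632275-93632304 (minus strand), with the capitals beginning 138 bases before the start. The *Lig1* stretch is chr7:13278841-13278870 (plus strand), with the capitals beginning at base 27 of the transcript. In *Mcm5* and *Mcm6* another match on the opposite strand overlaps the one in capitals.

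The G2/M genes carried another set of letters, the CHR element TTTGAA, shown here for 4 genes with the capitals on it. The gene's strand is printed again.
Cdk1: ctgattggctccTTTGAAcgtctacgtgca
Ccnb2: cagggactagaaTTTGAAaataagactgta
Top2a: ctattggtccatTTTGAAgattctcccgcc
Mki67: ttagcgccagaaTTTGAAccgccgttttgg
The *Cdk1* stretch is chr10:69352966-69352995 (minus strand), with the capitals beginning 71 bases before the start. The *Ccnb2* stretch is chr9:70421704-70421733 (minus strand), with the capitals beginning 167 bases before the start. The *Top2a* stretch is chr11:99024351-99024380 (minus strand), with the capitals beginning 179 bases before the start. The *Mki67* stretch is chr7:135716478-135716507 (minus strand), with the capitals beginning 116 bases before the start.

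Counted over both strands of all windows, the E2F letters were in 8 of 23 G1/S genes with a window and in 1 of 10 G2/M genes, *Cdk1*, against 0.929% of all 27025 genes with a window. Another spelling of the E2F site (TTTCCCGC or TTCCCGCC) was in 8 of 23 G1/S genes and in 0 of 10 G2/M genes, against 3.15% of all genes. TTTGAA was in 7 of 10 G2/M genes and in 2 of 23 G1/S genes, against 20.2% of all genes. The CCAAT box, which often stands near a CHR, was in 9 of 10 G2/M genes and in 12 of 23 G1/S genes, against 41.1% of all genes, and 7 G2/M genes but 1 G1/S gene held both. A match is a description of the letters only and does not show that a factor binds there.

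Of the G1/S genes 12 of 27 were higher in the luciferase cultures, while no gene of the G2/M set passed the test. Among the 41 tested genes, 13 were higher in luciferase neurons and 0 were lower at an adjusted p of 0.05 (limma, Benjamini-Hochberg over all 22748 probe sets, with the probe set of the highest mean level standing for the gene). Over all 12315 genes the same test called 16.9% higher and 8.55% lower. After centring every array on its median it called 9.42% higher and 15.8% lower, and there 6 of the 41 genes were higher. The 13 comprised 12 of 27 G1/S genes, 0 of 11 G2/M genes and *Cdkn1c*, an inhibitor of cell cycle kinases. At an unadjusted p of 0.05 in the same limma fit, 16 of 27 G1/S genes were higher, 0 of 11 G2/M genes passed and 0 of the 41 genes were lower, while 39.7% of all genes passed in either direction. In 15 of the 41 genes every luciferase array lay above every blank array, and in 0 every one lay below, against 24.5% and 13.0% of all genes; 14 of the 15 were G1/S and 0 were G2/M genes. The median log2 change was 0.27 for G1/S genes and 0.13 for G2/M genes, against 0.06 for all genes. Most changes were small, and 2 of the 13, *Ccne2* and *Cdkn1c*, reached the 1.5-fold change that the methods also ask for, a rule that called 2.60% of all genes higher.

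**Figure D1:**
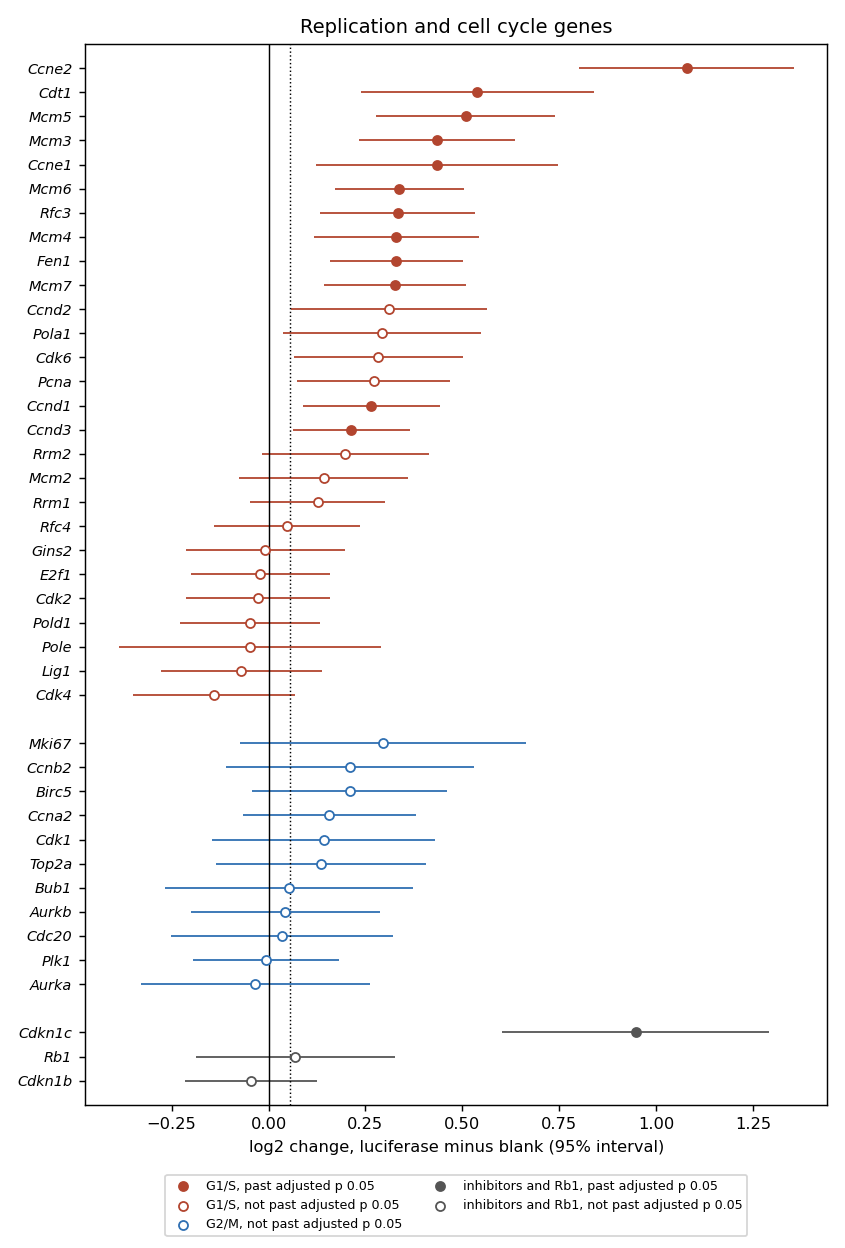
Log2 change (luciferase minus blank, horizontal axis) of the 41 tested genes with its 95% interval, grouped into G1/S genes, G2/M genes and the 3 genes in neither list. Filled points passed the adjusted p. The dotted line, at 0.057, is the median deviation of all genes from the blank mean, averaged over the luciferase arrays. The 12 filled G1/S points lie between 0.21 and 1.08, and no G2/M point is filled.

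The count of 13 depended on a few arrays. It was 6 without blank replicate 5, 6 without blank replicate 6 and 8 without luciferase replicate 4, and between 9 and 11 without each other luciferase array. Blank replicate 7 stood apart from the other blank arrays, with the highest blank level in 7348 of 12315 genes and an array weight from limma of 0.271, against 3.41 and 0.781 for blank replicates 5 and 6 (a low weight marks an array that strays from its group). Without it the count was 13, and with the arrays so weighted it was 17. After centring every array on its median it was 6, against 9.42% of all genes, and with quantile normalization 8, against 1475 of all 12315 genes higher and 1471 lower. *Mcm3*, *Mcm5*, *Mcm6*, *Ccne2* and *Cdkn1c* passed under every alternative in which their probe set was fitted, leave-one-out included. Centring took away the calls of *Mcm4*, *Mcm7*, *Rfc3*, *Fen1*, *Ccnd1*, *Ccnd3* and *Ccne1*. Quantile normalization did so for *Mcm4*, *Rfc3*, *Ccnd1*, *Ccnd3* and *Ccne1*. The losses given below for single genes are only those with an array left out. Read as 1 value per gene, none of the 41 genes was lower under any alternative run. Among single probe sets, *E2f1* on 1417878_at was lower with the arrays weighted (limma adjusted p = 0.036), and *Ccnd3* on 1444323_at is described below. The share of all genes is not given for arrays left out or weighted, so the counts of listed genes there cannot be set against it. Over all probe sets, the rule with 1.5-fold called 659 higher, and 596 to 841 with 1 array left out.

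Of the tested genes of the helicase and its loading, 6 of 8 were higher (75%, against 16.9% of all genes), with a median log2 change of 0.33. *Mcm5*, a subunit of the MCM helicase, had levels of 128, 102, 100.3 and 125 in luciferase neurons, against 77.95, 81.2 and 79.2 in blank neurons. All 4 luciferase arrays lay above the blank arrays, which were within a narrow range, and the log2 change was 0.51 (SE 0.10, limma adjusted p = 0.0089). *Mcm3*, another subunit, had 156, 145, 147 and 159 in luciferase neurons, against 99.7, 125 and 114 in blank neurons. The log2 change was 0.43 (SE 0.089, limma adjusted p = 0.0094), again with no overlap between the groups. *Mcm6* had 606, 588, 551 and 556 in luciferase neurons, against 466, 428 and 471 in blank neurons, a log2 change of 0.34 (limma adjusted p = 0.012).

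*Cdt1*, which helps to load the helicase on DNA, had the largest change of the group. Its levels were 467, 515, 507 and 518 in luciferase neurons, against 343, 276 and 434 in blank neurons, with a log2 change of 0.54 (SE 0.13, limma adjusted p = 0.020). The luciferase arrays were close together and the blank arrays spread more, with blank replicate 7 nearest to the luciferase arrays. Another probe set of *Cdt1*, 1424144_at, gave 219, 282, 249 and 253 in luciferase neurons, against 151, 137 and 201 in blank neurons, and a log2 change of 0.64 (limma adjusted p = 0.011). Without blank replicate 5 or blank replicate 6 the probe set of higher level did not pass (limma adjusted p = 0.056 and 0.052), while 1424144_at passed under every alternative.

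*Mcm7* was higher on each of its 3 probe sets, with log2 changes from 0.33 to 0.38. The probe set of the highest level had 914, 773, 790.0 and 808 in luciferase neurons, against 660.2, 621 and 681 in blank neurons (limma adjusted p = 0.020, and 0.056 without blank replicate 5 and 0.072 without blank replicate 6). Its probe set 1416030_a_at did not pass without blank replicate 5 (limma adjusted p = 0.052). *Mcm4* had 314, 296, 295 and 355 in luciferase neurons, against 226, 254 and 272 in blank neurons, a log2 change of 0.33 (limma adjusted p = 0.034). Its groups did not overlap, but the call was lost when luciferase replicate 1, 3 or 4 or blank replicate 5 or 6 was left out (limma adjusted p from 0.051 to 0.12).

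The probe sets of *Mcm2* and *Gins2* did not give the same call. *Mcm2* on 1434079_s_at had 343, 381, 396 and 436 in luciferase neurons, against 346, 385 and 326 in blank neurons, with overlapping groups and a log2 change of 0.14 (95% interval from -0.076 to 0.36, limma adjusted p = 0.31). On 1448777_at, which reads the same gene, it had 218, 239.8, 213 and 249 in luciferase neurons, against 162, 166 and 212 in blank neurons, a log2 change of 0.36 (limma adjusted p = 0.039). *Gins2*, a subunit of the complex that activates the helicase, had log2 changes of -0.0088 on 1428713_s_at (limma adjusted p = 0.95) and 0.36 on 1452881_at (limma adjusted p = 0.049). The calls on 1448777_at and 1452881_at were each lost when luciferase replicate 1, 2 or 4 or blank replicate 5 or 6 was left out, and that on 1448777_at also without luciferase replicate 3, that on 1452881_at also without blank replicate 7 (limma adjusted p up to 0.14 and 0.12). A name ending in _s_at marks a probe set whose probes may match several transcripts. The place of each probe set in its transcripts was not analysed here.

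**Figure D2:**
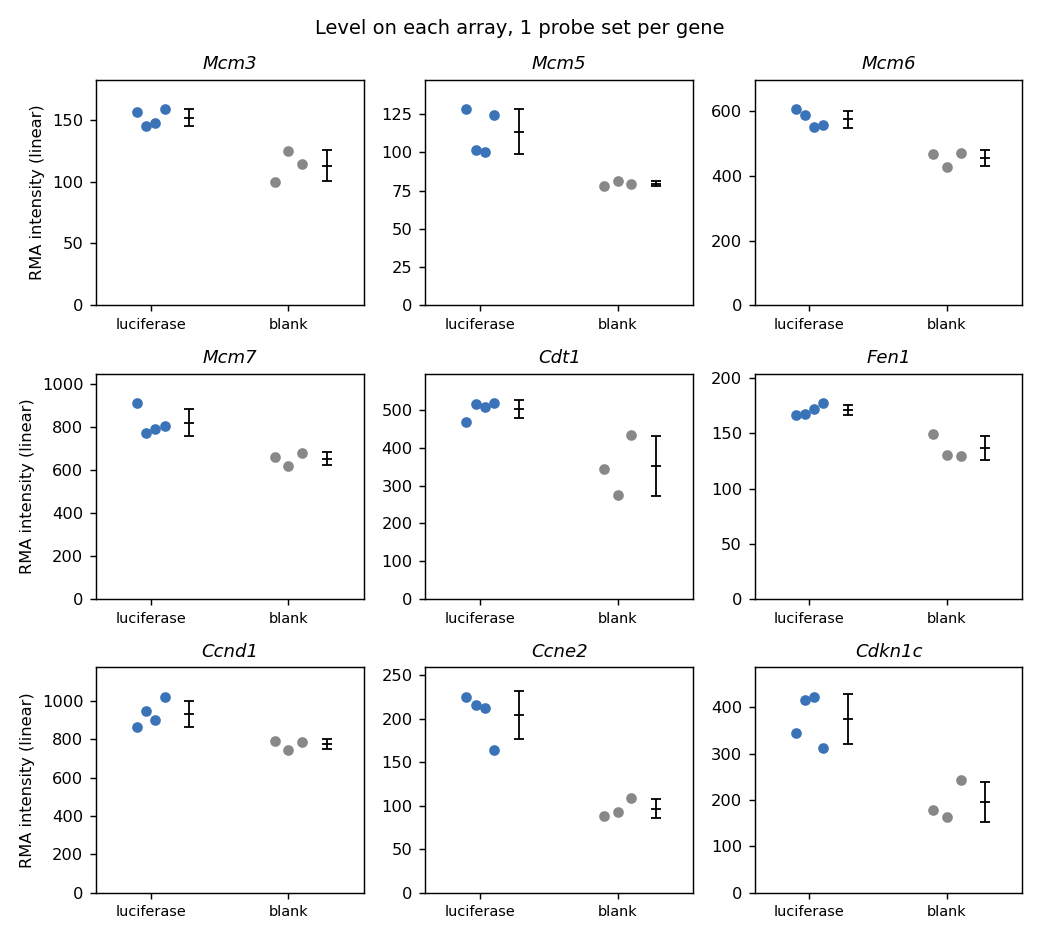
Levels (RMA intensity, linear scale from 0, vertical axes) of 9 genes on each luciferase array (blue, n = 4) and each blank array (grey, n = 3), with the bars beside the points giving mean ± SD. In all 9 the luciferase points lie above the blank points, in *Ccne2* at 164 to 225 on luciferase arrays, against 87.98 to 109.01 on blank arrays.

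Among polymerases, the clamp, its loader and ligation, 2 of 8 tested genes were higher, with a median log2 change of 0.16. For so few genes this share of 25% is close to the 16.9% of all genes. *Fen1*, the nuclease that trims the ends of lagging-strand fragments, had 167, 168, 173 and 178 in luciferase neurons, against 149, 130.5 and 129.9 in blank neurons. The luciferase arrays formed a tight group above all blank arrays, with a log2 change of 0.33 (SE 0.077, limma adjusted p = 0.015, and 0.056 without blank replicate 6). *Rfc3*, a subunit of the clamp loader, had 154, 161, 135 and 156 in luciferase neurons, against 124, 128 and 109 in blank neurons, a log2 change of 0.33 (limma adjusted p = 0.026). This call was lost when luciferase replicate 1, 2 or 4 or blank replicate 5 was left out (limma adjusted p from 0.057 to 0.065), and its other probe set, 1423700_at, had a log2 change of 0.028 with overlapping groups (limma adjusted p = 0.81).

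*Pcna*, the sliding clamp, lay close to the threshold. It had 3452, 3462, 3021 and 3678 in luciferase neurons, against 2967, 2878 and 2607 in blank neurons. The groups did not overlap, with a log2 change of 0.27 (95% interval from 0.073 to 0.47, limma adjusted p = 0.051), and it passed without luciferase replicate 3 (limma adjusted p = 0.036). The clamp loader subunit *Rfc4*, the polymerase genes *Pola1*, *Pold1* and *Pole* and the ligase gene *Lig1* did not pass, with log2 changes from -0.070 for *Lig1* to 0.29 for *Pola1*. *Pola1* and *Lig1* are the 2 genes printed above with the E2F letters that did not pass. Of the 8 such genes 6 were higher (*Mcm3*, *Mcm5*, *Mcm6*, *Mcm7*, *Cdt1* and *Rfc3*). Of 13 tested G1/S genes with a window without these letters 3 were higher, and some of the 13 carry the other spelling of the E2F site. For that other spelling, 3 of 7 tested G1/S genes with it were higher, and 6 of 14 with a window without it. These differences were not tested.

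The genes of nucleotide supply did not pass. *Rrm2*, the small subunit of ribonucleotide reductase, had 485, 411, 404 and 465 in luciferase neurons, against 350.0, 419 and 384 in blank neurons, a log2 change of 0.20 (95% interval from -0.017 to 0.41, limma adjusted p = 0.16). *Rrm1*, the large subunit, had a log2 change of 0.13 (95% interval from -0.047 to 0.30). The groups overlapped in both.

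Among G1 cyclins, their kinases and *E2f1*, 4 of 9 genes were higher (44.4%, against 16.9% of all genes), all of them cyclins. The median log2 change over the 9 was 0.26. *Ccne2*, an E-type cyclin that drives the step into DNA synthesis, had the largest change of the 41 genes on the probe sets that stand for them; probe sets of *Cdkn1b* and *Ccnd2* described below changed more. Its levels were 225, 216, 212 and 164 in luciferase neurons, against 87.98, 92.3 and 109 in blank neurons, so that its mean level was 211% of blank. The log2 change was 1.08 (SE 0.12, limma adjusted p = 0.00076), and every luciferase array lay above every blank array. A two-sided exact permutation test gave p = 0.029, the smallest that the 35 splits of 7 arrays into 4 and 3 allow. For *Rfc3*, also without overlap between the groups, the same permutation test gave p = 0.057. *Ccne1*, the other E-type cyclin, had 259, 304, 247 and 244 in luciferase neurons, against 188, 161 and 244 in blank neurons. Blank replicate 7 was just under the lowest luciferase array, and the log2 change of 0.43 (SE 0.14, limma adjusted p = 0.048) did not pass when any 1 luciferase array or blank replicate 5 or 6 was left out (limma adjusted p from 0.064 to 0.16).

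Of the D-type cyclins, which act before the E-type cyclins, *Ccnd1* and *Ccnd3* passed on the probe set of the highest level. *Ccnd1* had 865, 945, 899.8 and 1021 in luciferase neurons, against 792, 746 and 787 in blank neurons, a log2 change of 0.26 (limma adjusted p = 0.037), and its other probe sets had log2 changes of 0.35 and 0.40, both past the test (1417420_at and 1417419_at). The call on the probe set of the highest level was lost when luciferase replicate 2, 3 or 4 or blank replicate 5 or 6 was left out (limma adjusted p from 0.064 to 0.11), while 1417420_at passed under every alternative and 1417419_at failed without luciferase replicate 1, 2 or 4 and without any 1 blank array (limma adjusted p up to 0.13). *Ccnd3* had 515, 532, 517 and 495 in luciferase neurons, against 439, 437 and 456 in blank neurons, a log2 change of 0.21 (limma adjusted p = 0.045). Its dimmer probe set 1444323_at ran the other way, with 71.8, 66.3, 66.8 and 65.1 in luciferase neurons, against 76.1, 81.8 and 78.1 in blank neurons and a log2 change of -0.22 (limma adjusted p = 0.048), and was the 1 member probe set of 65 that was lower. The calls on both *Ccnd3* probe sets were lost when any 1 luciferase array or blank replicate 5 or 6 was left out, and that on 1444323_at also without blank replicate 7 (limma adjusted p up to 0.12 on 1415907_at and 0.14 on 1444323_at).

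*Ccnd2*, the D-type cyclin with 6 tested probe sets, differed in call between them. The probe set of the highest level, 1416122_at, had 3577, 3125, 2764 and 3476 in luciferase neurons, against 2915, 2589 and 2316 in blank neurons, with overlapping groups (log2 change 0.31, limma adjusted p = 0.071), and it passed without luciferase replicate 3 (limma adjusted p = 0.045). On 1416123_at it had 249.7, 379.7, 329.8 and 443 in luciferase neurons, against 128, 124 and 184 in blank neurons. There the lowest luciferase array was well above the highest blank array, with a log2 change of 1.26 (SE 0.20, limma adjusted p = 0.0031). The probe sets 1448229_s_at and 1434745_at were also higher, by 0.97 and 0.48 on the log2 scale (limma adjusted p = 0.0075 and 0.012), and 1430127_a_at and 1416124_at had changes of 0.12 and 0.34 and did not pass. The 3 probe sets that passed did so under every alternative.

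The kinases of the G1 cyclins and *E2f1* did not pass. *Cdk6* had a log2 change of 0.28 (95% interval from 0.065 to 0.50, limma adjusted p = 0.061) with all luciferase arrays above the blank arrays, and it passed without luciferase replicate 2 (limma adjusted p = 0.021). *Cdk4* had 701, 714, 582 and 653 in luciferase neurons, against 723, 680.3 and 785 in blank neurons, a log2 change of -0.14 (95% interval from -0.35 to 0.067). *Cdk2* and *E2f1*, the transcription factor of the G1/S genes, had log2 changes of -0.027 and -0.021, with 95% intervals from -0.21 to 0.16 and from -0.20 to 0.16.

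No G2/M gene passed the test, and their changes ran from -0.034 for *Aurka*, a kinase of the spindle poles, to 0.29 for *Mki67*, the marker of dividing cells. *Mki67* had 321, 269, 336 and 462 in luciferase neurons, against 309.5, 283 and 244 in blank neurons (95% interval of the log2 change from -0.074 to 0.66, limma adjusted p = 0.21). Luciferase replicate 4 was far above the rest, luciferase replicates 1 and 3 were just above the highest blank array, and luciferase replicate 2 lay within the blank range. *Ccna2*, the cyclin of DNA synthesis and early mitosis, had 318, 287, 279.7 and 363 in luciferase neurons, against 272, 295 and 269 in blank neurons. *Cdk1*, the kinase that starts mitosis, had 274, 259.8, 231 and 343 in luciferase neurons, against 263, 258 and 225 in blank neurons. *Top2a*, which untangles copied DNA, had 332, 302, 318 and 426 in luciferase neurons, against 294, 299 and 341 in blank neurons. In these genes too luciferase replicate 4 was the highest of the 7 arrays.

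The remaining G2/M genes did not pass either. *Ccnb2*, a B-type cyclin, and *Birc5*, the survivin protein of the chromosomal passenger complex, had log2 changes of 0.21 and 0.21. The changes of the kinase genes *Aurkb*, *Bub1* and *Plk1* and of *Cdc20*, which activates the complex that ends mitosis, lay between -0.0064 for *Plk1* and 0.052 for *Bub1*. The upper ends of the 95% intervals of the 11 genes reached from 0.18 for *Plk1* to 0.66 for *Mki67*, and only those of *Plk1* and *Aurka* (0.26) were below the G1/S median of 0.27, so a rise of that size in most G2/M genes could not be told from no change with this number of arrays.

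**Figure D3:**
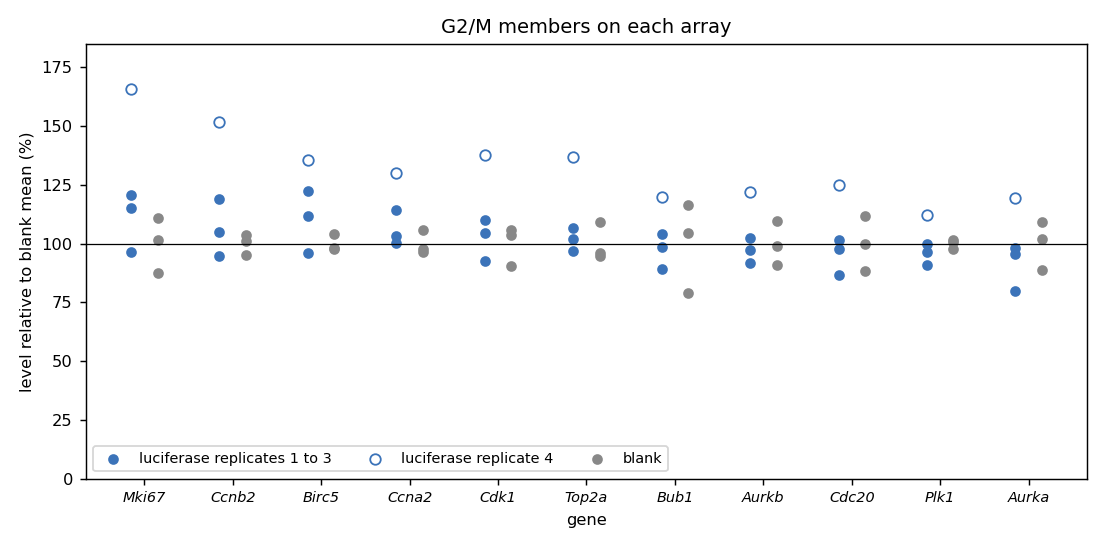
Level of the 11 tested G2/M genes on each array relative to the blank mean, in percent (vertical axis, from 0), for luciferase replicates 1 to 3 (filled blue), luciferase replicate 4 (open blue) and the blank arrays (grey). The open point is the highest luciferase value in each gene, from 112% in *Plk1* to 166% in *Mki67*, which for *Aurkb* follows from the limit on level.

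*Aurkb* reached 50 on luciferase replicate 4 alone, so that its place there was fixed by the limit on level. Among genes that reached 50 on another array too, luciferase replicate 4 held the highest luciferase level in 10 of 10 G2/M genes, in 13 of 27 G1/S genes and in 25.9% of all 12287 genes. Its median distance from the mean of the other luciferase arrays was 0.39 on the log2 scale in these G2/M genes, with a range over genes from 0.23 to 0.59, against 0.10 in G1/S genes and -0.0023 in all genes. In 43 further genes of G2 and mitosis, it was the highest luciferase array in 27, with a median distance of 0.14. Nothing in the labels sets this sample apart.

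Taken array by array, the median of the G1/S genes was above that of all genes on every luciferase array, and that of the G2/M genes was on luciferase replicates 1 and 4. The median deviation of the G1/S genes from the blank mean was 0.30, 0.24, 0.17 and 0.31 on luciferase replicates 1 to 4, against -0.016, -0.0037 and 0.045 on blank replicates 5 to 7. The same median over the G2/M genes was 0.096, -0.043, 0.00027 and 0.38 on luciferase arrays, against 0.024, 0.011 and -0.027 on blank arrays. All genes had medians from 0.046 to 0.077 on luciferase arrays, against -0.051 to 0.066 on blank arrays. The difference between the G1/S and the G2/M median was 0.20, 0.29 and 0.17 on luciferase replicates 1 to 3 and -0.07 on luciferase replicate 4, against -0.039, -0.015 and 0.072 on blank arrays. From the fit, the medians differed by 0.14, and by 0.20 without luciferase replicate 4, where the G2/M median, over 10 genes since *Aurkb* no longer reached 50, was 0.031 and the G1/S median 0.23. This is given as a description, since the genes of a set share the arrays and are not replicates.

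**Figure D4:**
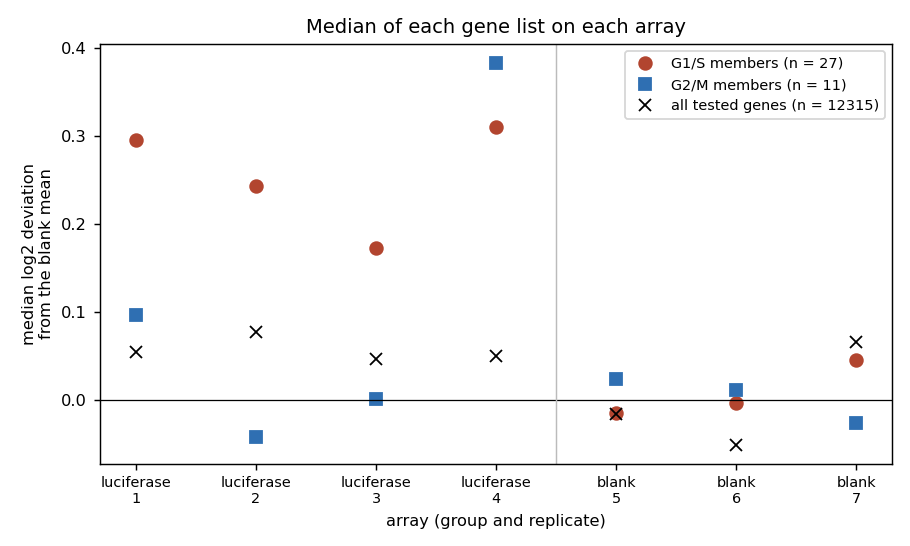
Median log2 deviation from the blank mean (vertical axis) on each of the 7 arrays (horizontal axis, luciferase replicates left of the line) over G1/S genes (circles, n = 27), G2/M genes (squares, n = 11) and all tested genes (crosses, n = 12315). The circles stand at 0.17 to 0.31 on the 4 luciferase arrays, and the squares are above 0.1 only on luciferase replicate 4, at 0.38.

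Among the inhibitors, *Cdkn1c*, which encodes p57, a brake on cyclin kinases, was higher. It had 345, 416, 423 and 312 in luciferase neurons, against 179, 163 and 244 in blank neurons. The groups did not overlap, and the mean level was 193% of blank, a log2 change of 0.95 (SE 0.15, limma adjusted p = 0.0036). *Rb1*, the retinoblastoma protein that holds E2F in check, had 762, 781, 809 and 746 in luciferase neurons, against 635, 698 and 906 in blank neurons. The blank arrays spread more widely than the luciferase arrays, and the log2 change was 0.069 (95% interval from -0.19 to 0.33).

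*Cdkn1b*, which encodes p27, an inhibitor that holds neurons out of the cycle, passed on 1 of its 2 tested probe sets. On 1434045_at, the probe set of the highest level, it had 2597, 2394, 2607 and 2318 in luciferase neurons, against 2508, 2479 and 2681 in blank neurons, a log2 change of -0.045 (95% interval from -0.22 to 0.13, limma adjusted p = 0.69). On 1419497_at it had 428, 905, 773 and 718 in luciferase neurons, against 308, 212 and 274 in blank neurons. All luciferase arrays were above the blank arrays there, luciferase replicate 1 the least, with a log2 change of 1.38 (SE 0.23, limma adjusted p = 0.0042). With the mean of its probe sets in place of the highest, the change was 0.67 (limma adjusted p = 0.0034).

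**Figure D5:**
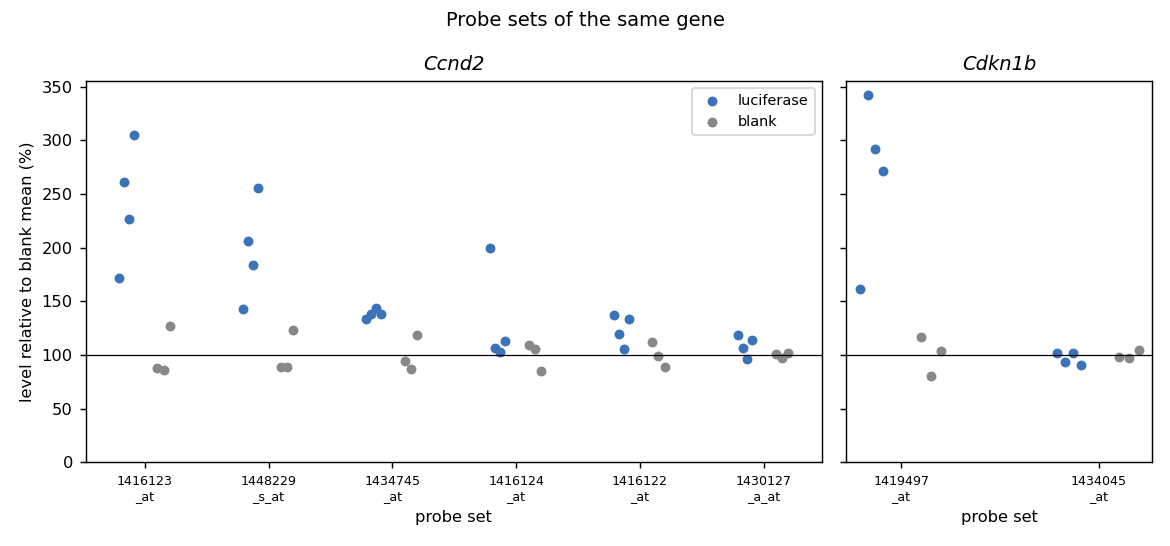
Level on each array relative to the blank mean, in percent (vertical axis, from 0) for the 6 tested probe sets of *Ccnd2* and the 2 of *Cdkn1b*, with luciferase arrays in blue and blank arrays in grey. In *Cdkn1b* the luciferase arrays stand at 162% to 342% on 1419497_at and at 90.7% to 102% on 1434045_at.

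Such differences within a gene were found in 7 of the 17 tested genes with several tested probe sets (*Mcm2*, *Mcm3*, *Gins2*, *Rfc3*, *Ccnd2*, *Ccnd3* and *Cdkn1b*). In each of the 7 some but not all probe sets were higher, as in 23.4% of all 5291 genes with several. In *Mcm3* another tested probe set, 1426653_at, did not pass, at a log2 change of 0.29, while 1426652_at did, at 0.38, though not without blank replicate 5 (limma adjusted p = 0.057). Counted over probe sets, 25 of 65 were higher and 1 was lower, against 16.2% and 8.26% of all 22748. With any tested probe set counting, 17 of the 41 genes were higher, of which 15 were G1/S and 0 were G2/M genes, against 21.7% of all genes.

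Further genes of the cycle, listed by role, were read with the same test. Of 106 tested genes out of 115 listed, 18 were higher and 4 were lower, with a median log2 change of 0.13. The share of 17.0% higher is that of all genes, 16.9%, so the count says nothing particular of these genes. Among 41 genes of replication and G1/S, 10 were higher (24.4%) and 1 was lower. *Chaf1b*, a subunit of the factor that places histones on new DNA, had a mean level of 129.8 ± 6.66 on the luciferase arrays, against 86.98 ± 9.75 on the blank arrays (SD, n = 4 and 3) and a log2 change of 0.58 (limma adjusted p = 0.0031). *Prim1*, the primase that starts each new strand, *Ung*, which removes uracil from DNA, and *Cdc7*, a kinase that fires origins, were higher by 0.56, 0.51 and 0.41 on the log2 scale. *Orc1*, a subunit of the complex that marks origins, was lower, at -0.29. The count of 10 was 5 without luciferase replicate 1 or 2 or blank replicate 6 and 6 without luciferase replicate 3 or blank replicate 5, and *Orc1* did not pass without any 1 luciferase array or without blank replicate 6.

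Among 43 genes of G2 and mitosis, 4 were higher and 1 was lower, a share higher of 9.30% against the 16.9% of all genes. Those higher were *Spag5*, a protein of the spindle, *Smc2* and *Ncapd2*, subunits of the condensins, and *Pttg1*, the securin that guards sister chromatids, by 0.46, 0.38, 0.36 and 0.31 on the log2 scale. *Foxm1*, a transcription factor of G2/M genes, was lower, with a mean level of 113 ± 11.7 on the luciferase arrays, against 153 ± 3.36 on the blank arrays (SD, n = 4 and 3) and a log2 change of -0.44 (limma adjusted p = 0.0085). Without blank replicate 5 or 6, 2 genes were higher, and 2 were lower without luciferase replicate 3 and 3 without blank replicate 7. The medians of the 2 further lists were close, at 0.12 for replication and G1/S and 0.14 for G2 and mitosis, so these lists did not show the gap between the medians of the 27 and the 11 genes.

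Astrocyte markers differed between the groups as well, and those of neural progenitors did so in part. Of 11 tested astrocyte markers 7 were higher (63.6%, against 16.9% of all genes), and all 11 had changes above 0. Their median log2 change was 0.43, above the 0.27 of the G1/S genes. Their summed level was 25125 to 27448 in luciferase neurons, against 18650 to 20731 in blank neurons. The largest changes were those of *Gfap*, the astrocyte filament, *Aldh1l1*, a folate enzyme, and *Aqp4*, the water channel, at 1.19, 0.86 and 0.82 on the log2 scale (limma adjusted p = 0.00060, 0.00024 and 0.0013). The enzyme *Aldoc*, at 0.24, did not pass (limma adjusted p = 0.081), and the glutamate transporter *Slc1a2* did, at 0.51 (limma adjusted p = 0.0039). Of 10 tested markers of neural progenitors 3 were higher (30%) and 1 was lower (10%), the latter share near the 8.55% of all genes. The progenitor markers had a summed level of 17541 to 19627 in luciferase neurons, against 14711 to 17126 in blank neurons. *Fabp7* and *Vim*, genes of radial glia, had log2 changes of 0.18 (limma adjusted p = 0.16) and 0.35 (limma adjusted p = 0.020). Most of the summed level came from *Fabp7*, whose groups overlapped, at 12342 to 14178 in luciferase neurons, against 10629 to 12765 in blank neurons. *Pax6* and *Hes5* were also higher, by 0.44 and 0.50, and *Neurog2* was lower, at -0.33 (limma adjusted p = 0.027). *Nes* and *Hes1*, at 0.0097 and 0.051, were among those that did not pass. The part of these cells in the changes of the cell cycle genes was not tested, and in bulk RNA more cells of a type and more RNA per cell cannot be told apart.

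The labels call the cells neurons, and the study describes such cultures as mixed. All 10 neuronal markers were tested, and their summed level was 39091 to 41012 in luciferase neurons, against 38202 to 41456 in blank neurons. Of these markers *Slc17a7*, a vesicular glutamate transporter, was higher by 0.39 (limma adjusted p = 0.040), and *Nefl*, the light neurofilament subunit, was lower, with a log2 change of -0.80 (limma adjusted p = 0.00034). Over all genes the test called 16.9% higher and 8.55% lower. In the oligodendrocyte lineage 1 of 8 was higher (12.5%), near that share, with sums of 6448 to 7722 in luciferase neurons, against 6772 to 6945 in blank neurons. Of 10 microglial markers 8 were under 50 on all arrays, *Aif1* and *Cx3cr1* among them, and the other 2 did not pass, with sums of 172 to 205 in luciferase neurons, against 195 to 280.4 in blank neurons. Of 6 tested vascular and meningeal markers 1 was higher (16.7%) and 3 were lower (50%), with sums of 618 to 813 in luciferase neurons, against 1048 to 1191 in blank neurons. Among the 3 was *Col1a2*, at 36.7 to 48.5 in luciferase neurons, against 50.96 to 61.4 in blank neurons. It reached 50 on blank arrays alone, so it was tested only through the group where it is high. The gap lay in *Dcn*, a gene of fibroblasts, since the sums of the other 5 were 255 to 273 in luciferase neurons, against 251 to 288 in blank neurons. The endothelial markers *Pecam1* and *Cldn5* were under 50 on all arrays.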

How the data were processed

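RNA of 4 luciferase and 3 blank (untransduced) samples was hybridised to Affymetrix mouse expression arrays, 1 per sample. The labels name Trizol and the methods another extraction kit. RMA, its version not given in the sources used here, was the normalization. The authors deposited intensity values on a linear scale, from 4.69 to 23763. The deposited table held 0 columns of other samples.

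The blank columns sit 1 row low in the table and were moved up by 1 row. The 2 log2 group means, taken over the 45037 probe sets that are no controls, then had r = 0.995, against 0.376 to 0.421 for other moves from -3 to 3. The luciferase and blank samples share no replicate numbers.

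Of 45101 probe sets, 64 controls and 2441 ending in _x_at were left out, and the 22748 that reached 50 on at least 1 array were tested, as log2 values, with the lmFit and eBayes functions of limma 3.58.1 (R 4.3.3), as luciferase minus blank, with no covariates and Benjamini-Hochberg adjustment. Gene names came from the array's annotation, checked through Entrez IDs against a RefSeq table (34741 matched, 0 symbols changed), and only where a probe set names 1 gene. The probe set with the highest mean level stands for a gene. The methods' rule adds a 1.5-fold change to the adjusted p of 0.05. Single genes were compared with a two-sided exact permutation test over 35 splits. Tables and plots were made with Python 3.11.15, pandas 2.3.3, numpy 2.4.6 and matplotlib 3.10.9. The calculations were tested on simulated data. The number of arrays limits the precision of all values.

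The genes named are those past the test, those whose probe sets differ in call, those next to the level limit, the member with the highest level in each role, up to 4 of each further cell cycle list and up to 3 of each marker list. Others were named beside them to account for every listed gene, and *Slc1a2*, *Gfap*, *Aldh1l1*, *Aqp4*, *Slc17a7*, *Nefl*, *Dcn*, *Aif1*, *Cx3cr1*, *Pecam1* and *Cldn5* were chosen after their values were seen. So were *Pax6*, *Hes5*, *Neurog2*, *Nes*, *Hes1* and *Col1a2*. The members, gene lists and tests were chosen with earlier results of these data known. The alternatives were other filters, normalizations and variance models, _x_at probe sets kept, the mean of a gene's probe sets, G1/S genes without the D cyclins, *Cdk4* and *Cdk6*, and each array left out in turn.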

Additional observations from a re-analysis of the deposited data

Results flagged for a closer look

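Among 65 tested probe sets of the listed genes, 2 had a luciferase array far from the other 3 on the log2 scale, with a gap over the whole range above Dixon's critical value for 4 samples. *Pole* on 1448650_a_at stood at 41.93 on luciferase replicate 2, against 56.29 to 58.93 on the other luciferase arrays. *Ccnd2* on 1416124_at stood at 92.04 on luciferase replicate 1, against 47.22 to 52.16 on the others. Both probe sets are dim and neither passed the test. Chance flags about 1 in 20 groups, so 2 of 65 is no more than chance gives.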

How the results depend on the processing

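Over the alternatives, the number of the 41 genes that were higher ran from 6 to 13 with 1 array left out and was otherwise 12 to 17, except 6 with each array centred on its median, 8 with quantile normalization and 9 with no filter on level. It was 0 for lower genes throughout. With centring, the G1/S median was 0.17, and it was 0.23 to 0.29 with 1 array left out. The difference between the G1/S and G2/M medians stayed between 0.094 and 0.20. With the mean of all probe sets of a gene, *Ccnd3* turned to -0.0041 (limma adjusted p = 0.96) and *Cdkn1b* to 0.67 (limma adjusted p = 0.0034), which follows from probe sets of opposite sign. In that setting *Ccnd2* passed, at 0.58 (limma adjusted p = 0.00091), as did *Mcm2*, *Pcna* and *Cdk6*, while *Rfc3* did not (limma adjusted p = 0.058). *Pcna* has 1 tested probe set, so its change of 0.27 stayed the same and only its limma adjusted p moved, from 0.051 to 0.033. Of all probe sets, 659 were higher and 294 lower by the rule with 1.5-fold, and 410 and 527 with centring.

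Of the further genes of replication and G1/S, 10 higher became 19 with array weights and 5 with centring, and 1 lower became 4 with array weights, with centring and with the mean of probe sets, 3 with quantile normalization and 0 with no filter. Of the further G2/M genes, 4 higher became 10 with array weights and 7 with the mean of probe sets, and 1 lower became 3 with array weights, centring or quantile normalization and 2 with a limit of 100. Of the brakes and E2F genes, 4 higher became 9 with array weights, 2 with centring and 8 with the mean of probe sets, and 2 lower became 1 with no filter. With 1 array left out these counts were 5 to 13 and 0 to 1 for G1/S, 2 to 4 and 1 to 3 for G2/M, and 2 to 8 and 1 to 3 for the brakes. The causes were not tested.

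No paired analysis was possible because the luciferase samples are numbered 1 to 4 and the blank samples 5 to 7, so that no number is shared. Each group is few arrays, and for most listed genes the spread between them is close to the size of the changes. Low levels near 50 have no signal over background in the files to judge them by. *Cdc6*, just under 50, and *Tyms*, far under it, were left without a test by the limit on level.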

Other observations

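Among 22 tested brakes, pocket proteins and E2F family genes out of 26 listed, 4 were higher and 2 were lower in luciferase neurons. These shares, 18.2% and 9.09%, are close to the 16.9% and 8.55% of all genes. *Btg2*, an antiproliferative gene, *Cdkn2b*, which encodes the kinase inhibitor p15, *Cdk5r1*, the activator of the neuronal kinase CDK5, and *Tfdp1*, the partner of E2F factors, were higher by 0.42, 0.39, 0.35 and 0.32 on the log2 scale (limma, adjusted p = 0.015, 0.011, 0.036 and 0.016). *E2f3*, an activating E2F factor, had a mean level of 187 ± 14.8 on the luciferase arrays, against 313 ± 48.5 on the blank arrays (SD, n = 4 and 3), and a log2 change of -0.74 (limma adjusted p = 0.0027). *E2f4*, a repressing E2F factor that works with the pocket proteins, had a log2 change of -0.33 (limma adjusted p = 0.030). With 1 array left out, the number higher ran from 2 without blank replicate 5 to 8 without blank replicate 7, and 1 was lower without any 1 luciferase array or without blank replicate 6.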
